A study of Mus musculus with 10 samples.

Results

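The windows described here are promoter windows of mouse oocytes whose DNA methylation level was lowest in the older animals. They were chosen by the measured levels of all 3 pools: a window was kept where the 11-month wild-type (WT) level lay at least 20 percentage points below the 2-month WT level and at least 20 points below the 2-month Tet2 knockout (Tet2KO) level. The rule was met by 203 of the 40537 nuclear windows listed for all 3 pools (0.501%). Where these windows overlapped they were joined, which gave 166 separate loci. Because the rule used every pool, the levels below are a description with no test, and their intervals cover counting error only.

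A promoter window here is 2000 bp long and is centred on an annotated transcript start. Its level is 100 times the methylated CpG calls over all CpG calls, and a difference between pools is given in percentage points, called points. The samples were eggs ready for fertilisation, known as metaphase II (MII) oocytes, from females of a C57BL6/129 background. The labels give 4 libraries from 2-month WT, 3 from 11-month WT and 3 from 2-month Tet2KO animals, with no other agent or allele. No label says how the Tet2 allele was made or how many animals were used, and these data do not check the knockout. The deposited tables hold 1 pooled value per window and group, so the spread between libraries is not known here. The older group is WT alone, so an age difference in Tet2KO oocytes was not measured.

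Cytosine methylation at CpG sites is laid down in the mouse oocyte while it grows, by Dnmt3a with its partner Dnmt3l, and mainly over transcribed units. CpG-rich starts mostly stay free of it, while starts inside transcribed genes, CpG-poor starts and the control regions of maternal imprints can become methylated. Tet2 encodes a dioxygenase that oxidises 5-methylcytosine, and bisulfite sequencing counts methylcytosine and hydroxymethylcytosine alike.

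The labelled cell type was checked at genes whose control regions are methylated on the maternal allele. Of 19 such genes measured, 11 read above 90% in every pool, among them Kcnq1ot1, Airn, Peg3 and Snrpn. In all pools 5 read under 20%, namely Grb10, Inpp5f, Slc38a4, Igf2r and Gnas, and the other 3 (Peg10, Sgce and Mcts2) lay between. Snrpn and Snurf had the same levels and calls, as did Peg10 and Sgce, so each pair counts as 1 measurement. The windows cover starts and need not cover the control regions. The Kcnq1ot1 window was at 99.4% in 2-month WT, 97.8% at 11 months and 100% in Tet2KO. Values of the 3 pools are given in this order throughout. The H19 window, which belongs to a domain methylated on the paternal allele, was at 4.21%, 1.61% and 2.5%. It is 1 of 6 paternally imprinted genes measured. Meg3 was the highest of the 6 in 2-month WT, at 23.4%, 6.67% and 2.22%. Rasgrf1, Dlk1, Zdbf2 and the deepest Igf2 window were at most 2.33% in any pool. Nuclear windows held 9392359 CpG calls in the 2-month WT pool, 16993810 in the 11-month WT pool and 5464356 in the Tet2KO pool, and overlapping windows count a call more than once.

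Sequences of 6 of the named promoters show how far they differ in CpG content, which was low in most of the selected windows. Each is the RefSeq stretch from 250 bases before to 50 bases after a transcript start (build GRCm38.p6, the build that mm10 represents), 5′ to 3′, with CpG sites in capitals.
Harbi1, chr2:91711830-91712129 (+ strand): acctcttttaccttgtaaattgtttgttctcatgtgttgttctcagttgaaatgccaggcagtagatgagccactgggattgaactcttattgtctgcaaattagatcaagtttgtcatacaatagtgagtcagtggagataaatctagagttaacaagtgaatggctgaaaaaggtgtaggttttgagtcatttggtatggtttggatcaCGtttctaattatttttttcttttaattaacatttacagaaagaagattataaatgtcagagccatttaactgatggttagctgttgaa
Igf2, chr7:142666767-142667066 (- strand): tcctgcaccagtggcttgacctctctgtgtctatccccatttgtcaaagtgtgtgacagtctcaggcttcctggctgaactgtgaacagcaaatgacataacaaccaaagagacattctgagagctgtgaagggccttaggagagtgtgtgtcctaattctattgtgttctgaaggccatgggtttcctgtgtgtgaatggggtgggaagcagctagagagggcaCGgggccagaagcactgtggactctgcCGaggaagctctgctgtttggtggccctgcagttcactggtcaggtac
Topaz1, chr9:122746949-122747248 (+ strand): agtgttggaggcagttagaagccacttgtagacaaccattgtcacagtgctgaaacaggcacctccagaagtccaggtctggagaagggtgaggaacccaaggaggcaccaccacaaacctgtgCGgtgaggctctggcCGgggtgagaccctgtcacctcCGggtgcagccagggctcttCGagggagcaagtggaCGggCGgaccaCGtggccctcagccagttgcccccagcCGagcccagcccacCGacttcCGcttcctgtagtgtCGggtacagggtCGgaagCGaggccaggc
Dmd, chrX:85048045-85048344 (+ strand): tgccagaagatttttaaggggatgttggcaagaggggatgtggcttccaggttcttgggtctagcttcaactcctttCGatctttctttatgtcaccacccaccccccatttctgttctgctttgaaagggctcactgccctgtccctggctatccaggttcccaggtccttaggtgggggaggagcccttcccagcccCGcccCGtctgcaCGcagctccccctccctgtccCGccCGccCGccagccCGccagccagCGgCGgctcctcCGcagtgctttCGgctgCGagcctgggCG
Elavl2, chr4:91371991-91372290 (- strand): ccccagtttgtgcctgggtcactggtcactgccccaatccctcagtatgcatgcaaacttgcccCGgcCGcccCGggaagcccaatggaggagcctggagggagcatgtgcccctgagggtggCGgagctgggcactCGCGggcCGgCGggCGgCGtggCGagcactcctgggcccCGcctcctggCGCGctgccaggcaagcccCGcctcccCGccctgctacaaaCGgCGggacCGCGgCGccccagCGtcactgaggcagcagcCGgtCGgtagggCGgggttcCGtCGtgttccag
Anapc2, chr2:25272216-25272515 (+ strand): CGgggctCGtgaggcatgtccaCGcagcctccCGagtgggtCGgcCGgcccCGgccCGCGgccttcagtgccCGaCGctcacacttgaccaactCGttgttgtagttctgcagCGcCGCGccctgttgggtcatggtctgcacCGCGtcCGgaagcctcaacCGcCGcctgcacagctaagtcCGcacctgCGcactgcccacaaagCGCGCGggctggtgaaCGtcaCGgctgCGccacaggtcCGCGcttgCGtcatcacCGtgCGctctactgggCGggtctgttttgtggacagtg
The Harbi1 stretch holds 1 CpG and the Igf2 stretch 2. Topaz1 has 13 and Dmd 14, and both are rich in G and C (63.0% and 62.7%). At the other end, Elavl2 has 27 CpG sites and Anapc2 34, with an observed to expected CpG ratio of 0.688 and 0.994. Their methylation levels, given below, do not follow that order: the CpG-dense Elavl2 window was among the highly methylated ones in the 2-month pools.

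The selected windows were methylated in both 2-month pools and less so at 11 months. Their median level was 73.1% in 2-month WT (quartiles 49.1% and 92.6%), 33.3% at 11 months (13.1% and 56.3%) and 73.5% in Tet2KO (48.0% and 92.1%). Over all shared windows the medians were 3.23%, 2.72% and 2.17%, since most promoters are unmethylated in these cells. A window had to be at 20% or more in both 2-month pools to enter, so the high starting level follows from the rule. The rule did not set the sign of the difference between the 2-month pools, but it limited its size. Both levels had to lie between 20 points above the 11-month level and full methylation. The higher the 11-month level, the less they could differ. Closeness of the 2-month pools therefore follows in part from the rule, and how far it does so was not tested. The median Tet2KO minus 2-month WT difference of the selected windows was 0 points, with 93 windows higher in Tet2KO, 95 lower and 15 equal. In 167 of them the 2-month pools lay within 20 points of each other, 15 were at least 20 points higher in Tet2KO and 21 at least 20 points lower. Over all 40537 shared windows these counts were 37898, 1332 and 1307. In the 363 windows whose 11-month level lay at least 20 points above both other pools, they were 312, 40 and 11. The median difference of those 363 windows was also 0 points. Of all shared windows 15654 were higher in Tet2KO, 21335 lower and 3548 equal, with a median difference of -0.241 points.

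**Figure D1:**
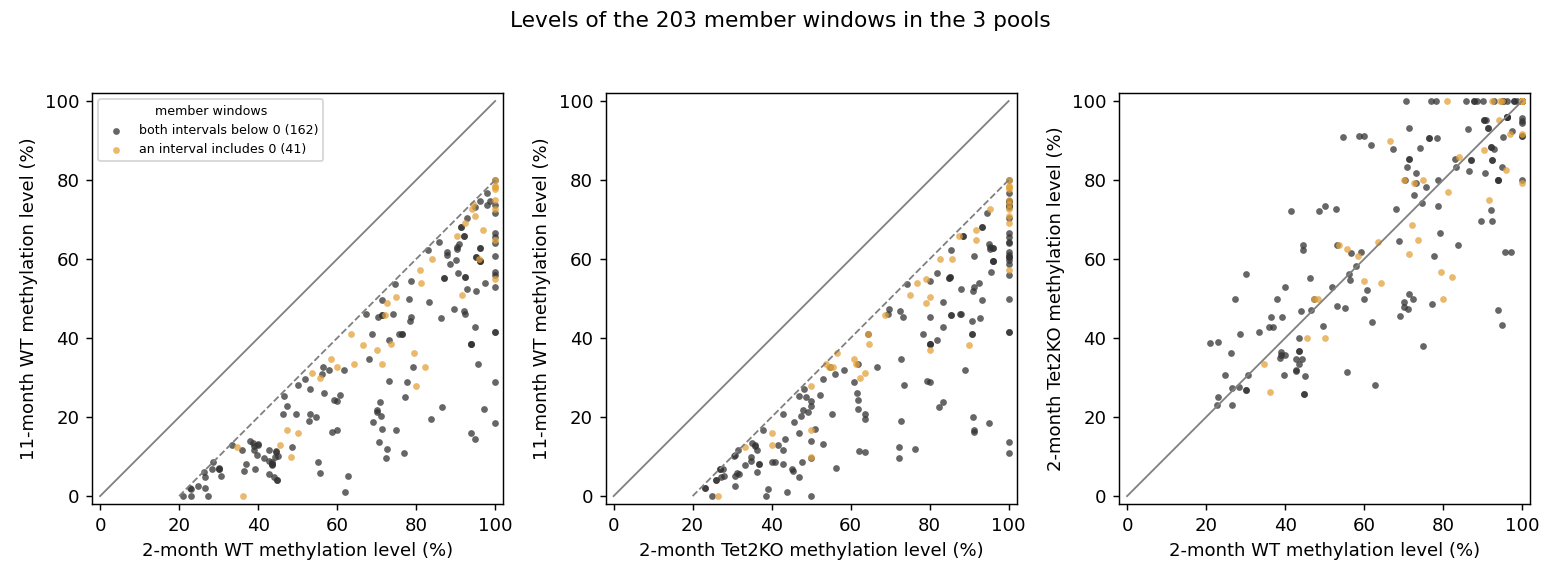
Methylation levels (%) of the 203 selected windows, plotted pool against pool; the solid line marks equal levels and the dashed line a gap of 20 points. Dark points are the 162 windows whose counting intervals lie below 0 for both differences, and the right panel shows the 2-month pools scattered on both sides of the line.

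The gaps ran from just over the limit to far beyond it. The smaller of the 2 gaps was under 25 points in 87 windows, from 25 to under 40 points in 95 and 40 points or more in 21. Newcombe 95% intervals of both differences lay below 0 for 162 windows and included 0 in at least 1 comparison for 41. They take each CpG call as independent, which was not checked. They would be too narrow if calls from the same molecule go together. Intervals below 0 in both comparisons were found in 2.68% of all shared windows, with no lower limit on the gap. Windows 20 points below 2-month WT numbered 1120 (2.76% of shared windows), of which 18.1% were selected. Against Tet2KO the count was 847 (2.09%), of which 24.0% were selected. Both comparisons share the 11-month pool, so these shares say nothing of agreement between them. The opposite rule, 20 points above both other pools, was met by 363 windows (0.895%), more than the rule used here. Tet2KO was the lowest pool by the same margin in 279 windows (0.688%).

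Most selected windows kept some methylation at 11 months. Both 2-month pools read 80% or more in 71 windows, and 60 of these were still at 50% or more at 11 months. A move from 50% or more in both 2-month pools to under 50% was seen in 70 windows. In 40 windows both 2-month pools were under 50%. The 11-month level was under 10% in 35 windows, under 5% in 13 and at 0 in 4. None of the 4 windows at 0 took a gene name, and they held 11, 21, 23 and 25 calls at 11 months. The closest to the limit among named windows were Mov10, whose smaller gap was 20.03 points, and the shared start of Anapc2 and Ssna1 at 20.3 points. Just outside lay Pnpla1 at 19.8, Cyp2c23 at 19.6 and B3galt4 at 19.5 points.

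Depth was low where most of these windows lie. Their median number of calls was 36, 59 and 24, against 131, 245 and 79 over all shared windows. In 89 windows the shallowest pool held 10 to 19 calls, and intervals of both differences lay below 0 in 51 of these. At 20 to 49 calls the intervals did so in 77 of 80 windows, and in all 26 and all 8 windows of the classes of 50 to 99 and of 100 or more calls. Elavl2 and Mov10 each supplied more than 1 of the 8, as overlapping windows that share most of their calls. The share of shared windows that met the rule was 1.34% at 10 to 19 calls, 0.827% at 20 to 49, 0.362% at 50 to 99 and 0.0470% at 100 or more. Windows highest at 11 months showed the same order, from 2.04% in the shallowest class to 0.217% in the deepest. Depth thus moved with the count of selected windows, and its part in the result was not tested. Among the 8 deepest, a window on chromosome 13 held 3241 calls in 2-month WT and 13218 in Tet2KO on at most 21 CpG positions, more than 10 calls per position.

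**Figure D2:**
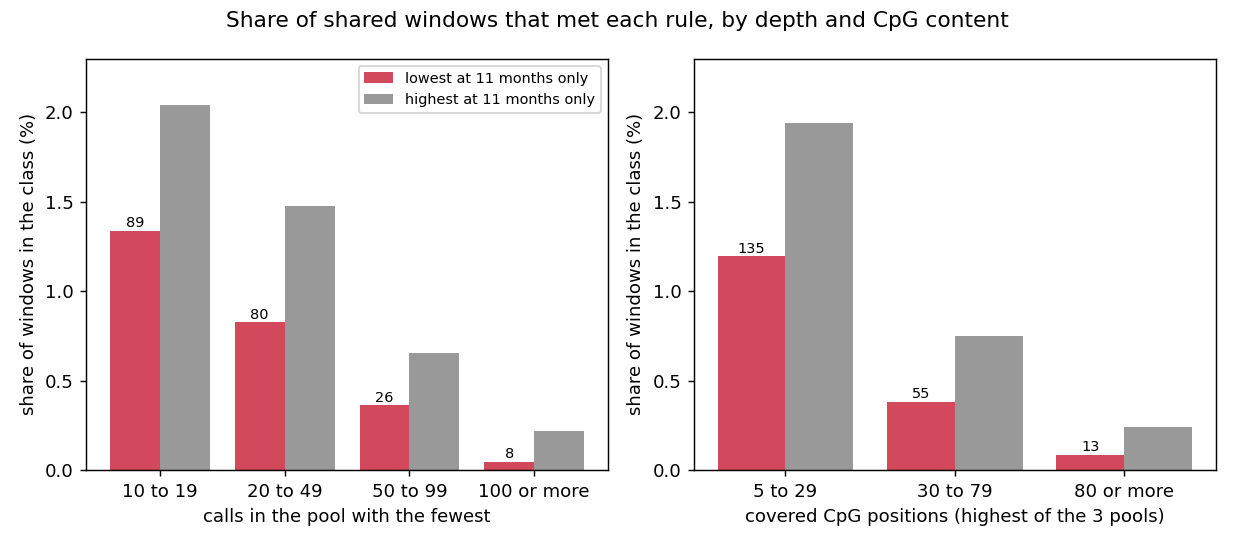
Share of shared windows (%) that met the rule (red, with the number of windows) or the opposite rule (grey), by calls in the shallowest pool (left) and by covered CpG positions (right). Both shares are lowest in the deepest and in the most CpG-rich class.

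The windows with the largest gaps at 20 calls or more in every pool, and those with the most calls, include 21 windows of named genes, chosen by gap and depth and not by function. Intervals of both differences lay below 0 in all 21. The tables also give a mean over CpG positions, in which each position counts equally whatever its calls. By that mean the 11-month pool was the lowest in all 21 windows as well, but by 20 points or more in only 10 of them. The windows that kept 20 points by both measures were those of Dmd, Slc43a3, Igf2, Gstm7, Prss30, Topaz1, Grip1, Dok7, Insr and Flna.

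**Figure D3:**
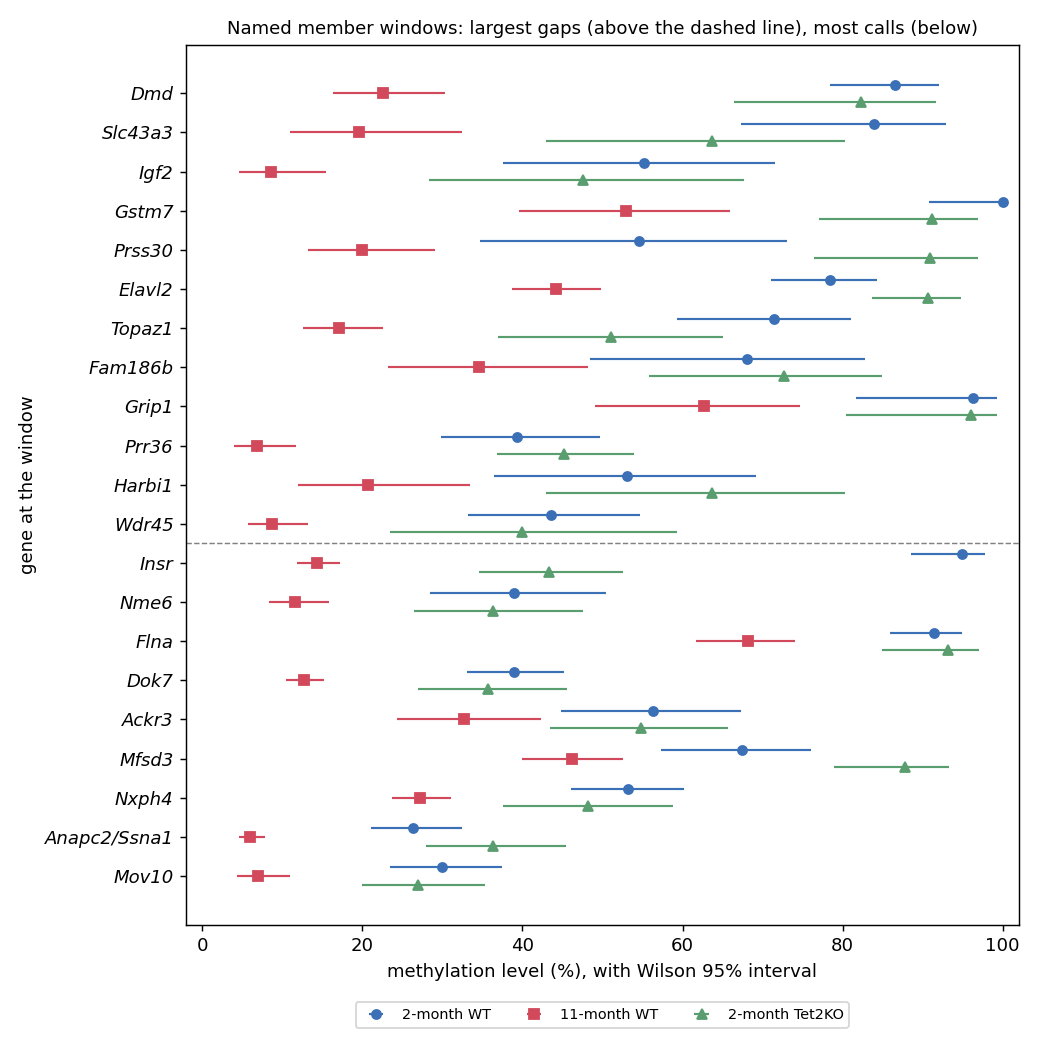
Methylation levels (%) with Wilson 95% intervals at 21 named windows in 2-month WT (circles), 11-month WT (squares) and 2-month Tet2KO (triangles), ordered by the smaller gap within each part. The 11-month value is the lowest at each gene, with levels from 6.01% at Anapc2/Ssna1 to 68.2% at Flna.

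Growth factor and insulin signalling genes supplied a pair of windows. Insr, the insulin receptor, was at 94.9% in 2-month WT (98 calls), 14.3% at 11 months (642 calls) and 43.4% in Tet2KO (113 calls), in the window chr8:3278618-3280617. Its differences from the 11-month pool were -80.6 points against 2-month WT (Newcombe 95% interval -84.4 to -73.6) and -29.0 points against Tet2KO (-38.6 to -19.8). The 3 pools thus lay apart from one another at Insr, and the Tet2KO level stood between the WT levels. Igf2, an imprinted growth factor expressed from the paternal allele, was at 55.2% (29 calls), 8.57% (105 calls) and 47.6% (21 calls) at chr7:142665817-142667816, inside the span of its antisense gene Igf2os. Intervals of the 2-month pools overlapped widely at Igf2, and both lay above that of the 11-month pool.

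Genes of the cytoskeleton and of synapses were among the largest and deepest cases. Dmd encodes dystrophin, which ties the cytoskeleton of muscle fibres to the membrane. Its window at chrX:85047413-85049412 was at 86.6% in 2-month WT (97 calls), 22.6% at 11 months (133 calls) and 82.4% in Tet2KO (34 calls). The smaller gap, 59.8 points, was the largest of any named window with 20 calls or more in every pool, and the start lies 2234 kb inside the gene. Flna, filamin A, which cross-links actin, was at 91.4%, 68.2% and 93.2% from 152, 214 and 73 calls. Dok7, an adaptor needed at the neuromuscular junction, was at 39.0%, 12.7% and 35.7% from 249, 756 and 98 calls. Dmd and Flna were thus high in both 2-month pools and Dok7 was of middle level, and at each the 2-month values differed by under 5 points. Grip1, a scaffold of glutamate receptors, was at 96.3%, 62.7% and 96% from 27, 51 and 25 calls, with the same order of pools. Nxph4, a secreted partner of neurexins, was at 53.2%, 27.2% and 48.1% from 188, 551 and 81 calls. By the mean over positions the smaller gap at Nxph4 was 0.958 points, the least of the 21.

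Regulators of RNA, meiosis and cell division included CpG-dense starts. Elavl2, an RNA-binding protein of neurons and germ cells, was at 78.4% (148 calls), 44.2% (303 calls) and 90.7% (107 calls) over up to 107 CpG positions. Topaz1, a germ-cell gene needed for male meiosis, was at 71.4% (63 calls), 17.1% (217 calls) and 51.1% (45 calls). Mov10 encodes an RNA helicase that restrains retrotransposons. Its window was at 30%, 6.96% and 27.0% from 160, 230 and 126 calls. The start shared by Anapc2, the cullin subunit of the anaphase-promoting complex, and Ssna1, a microtubule-binding protein, was at 26.3%, 6.01% and 36.3% from 228, 849 and 113 calls. At these 2 starts all pools were in the lower range, and by the share of calls the 11-month pool was near the level of an unmethylated promoter. By the mean over positions the 11-month pool was at 9.77% at Mov10 and 15.3% at Anapc2/Ssna1. By the mean over positions the smaller gap was 17.2 points at Mov10, 19.12 at Elavl2 and 6.14 at Anapc2/Ssna1.

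The rest included transporters and enzymes. Slc43a3, a nucleobase transporter, was at 83.9%, 19.6% and 63.6% from 31, 51 and 22 calls. Gstm7, a glutathione transferase, was at 100% (38 calls), 52.9% (51 calls) and 91.2% (34 calls). Prss30, a serine protease, was at 54.5%, 20% and 90.9% from 22, 95 and 33 calls, so that here the 2-month pools differed as well. Mfsd3, a member of the major facilitator transporters, showed the same order, at 67.4%, 46.2% and 87.8% from 92, 236 and 82 calls. Nme6, of the nucleoside diphosphate kinase family, was at 38.9%, 11.6% and 36.4% from 72, 277 and 77 calls. Wdr45, which acts in autophagy, was at 43.6%, 8.76% and 40% from 78, 217 and 25 calls. The 2-month pools were close at Nme6 and Wdr45. Ackr3, a scavenging chemokine receptor, was at 56.3%, 32.7% and 54.8% from 71, 101 and 73 calls. Harbi1, derived from a transposase, was at 53.1%, 20.8% and 63.6% from 32, 53 and 22 calls. Of genes whose role is not described here, Prr36 was at 39.3%, 6.90% and 45.2% and Fam186b at 68%, 34.6% and 72.7%. By the mean over positions the smaller gap was 5.51 points at Nme6, 9.59 at Wdr45, 9.65 at Harbi1, 10.7 at Prr36, 13.5 at Ackr3, 15.5 at Mfsd3 and 16.5 at Fam186b, all under the limit of the rule.

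Of 14 lists of oocyte, imprinted, repair, metabolic and developmental genes, 3 held a selected window: Igf2 among 6 measured paternally imprinted genes, Lig1 among 32 DNA repair genes and Insr among 23 insulin and mTOR genes. All named genes together gave 63 of 15406. No gene met the rule among 19 maternally imprinted, 31 germline, 25 oocyte, 30 spindle and cohesin, 35 antioxidant and sirtuin, 21 mitochondrial, 21 methylation machinery, 22 granulosa and cumulus, 18 pluripotency, 29 sperm and 33 developmental regulator genes measured. The median level of the insulin and mTOR list was 1.71% in 2-month WT, 1.92% at 11 months and 1.12% in Tet2KO, so Insr stood far above its own list in the 2-month pools. Lig1, the DNA ligase that joins Okazaki fragments, was at 72.7% (11 calls), 48.9% (94 calls) and 79.2% (24 calls). Its interval against 2-month WT ran from -43.9 to 7.14 points, so no difference was detectable there at this depth, and the mean over positions at 11 months was 76.7%.

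Granulosa and cumulus genes mark the somatic cells that surround the oocyte. Their list was at a median of 4.89% in 2-month WT, 1.61% at 11 months and 1.41% in Tet2KO. Methylation at a promoter does not count cells, and a part of other cells in the selected windows was not tested.

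Low CpG content was the clearest feature shared by the windows that the rule did not use. They covered a median of 22 CpG positions (quartiles 16 and 37), against 60 over all shared windows. Fewer than 30 positions were covered in 135 of them (66.5%, against 27.9% of all windows), and 80 or more in 13 (6.40%, against 36.5%). The windows highest at 11 months had a median of 25 positions and those lowest in Tet2KO 23. Other windows of like 2-month level were also CpG-poor: at a mean 2-month level of 80% to 100% the median was 21 positions in the 83 selected windows and 23 in 4389 others, and at 20% to 40% it was 28 and 32. Low CpG content was therefore shared with methylated windows that did not meet the rule. Fewer CpG positions also give fewer calls, so the effects of CpG content and depth on selection cannot be told apart from these counts.

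The promoter sequences gave the same picture. RefSeq stretches were matched for 66 starts of 60 symbols. Their median was 6 CpG sites and an observed to expected ratio of 0.296, against 17 and 0.685 over 17514 promoters at shared windows. Promoters that were methylated at 20% or more at 2 months but not selected had a median of 6 and a ratio of 0.320 (2283 promoters). Of the 66 stretches, 31 held 5 or fewer CpG sites and 11 held 15 or more. No CpG at all was present in those of Gc, which encodes the vitamin D binding protein, and Map3k13, a kinase, although their windows carried CpG sites farther from the start.

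Short motifs were searched on both strands of the same stretches. The TATA box letters TATAAA were in 10 of 66 (15.2%), against 8.35% of all and 12.1% of the methylated but not selected promoters. CCAAT was in 31.8%, against 37.1% and 37.6%. GGGCGG, the letters bound by Sp1, was in 33.3%, against 55.9% and 33.7%. The E-box CACGTG was found in 2 stretches, those of Topaz1 and Lig1, and GCGCATGC in 1, that of Lig1. The letters TGACGTCA were in none of the 66. All of these motifs but the first pair contain a CpG, so their shares move with CpG content.

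Many of the windows lay at starts inside a longer gene. The centre lay within a gene not named for the window, over 1 kb from both of its ends, in 80 windows (39.4%, against 22.5% of all shared windows). Of these, 70 had no name, so the gene around them can be the one whose transcript starts there. For windows highest at 11 months the share was 34.7% and for those lowest in Tet2KO 39.1%. Among windows at a mean 2-month level of 80% to 100% it was 42.2% for the selected and 59.0% for the others, so position inside a gene went with high methylation in general. The contrast depended on depth: with at least 20 calls in every pool the share was 31.6% of 114 selected windows against 18.9% of all, and with at least 50 calls it was 5.88% (2 of 34) against 12.9%. Of windows named for a gene of known strand, 27 of 85 (31.8%) lay over 1 kb downstream of that gene's outermost start. The share was 27.9% of methylated but not selected windows and 14.7% of all. Grip1 is an example, with a member start 366 kb inside the gene, and Elavl2 another, 28.1 kb inside.

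The outer starts of the genes that hold these windows were mostly unmethylated, as most promoters are in these cells. Of 47 host genes with a window at their own start, 45 were under 20% there in all 3 pools, and none of the 47 starts met the rule. The median over these starts was 1.55% in 2-month WT, 1.56% at 11 months and 1.37% in Tet2KO. Over all shared windows the upper quartiles were 12.9%, 10% and 10.2%. The share of all shared windows under 20% in every pool was not computed, so the 45 of 47 cannot be set against it. Only 0.501% of all shared windows met the rule, so it would rarely be met among 47 starts. In Adgrl2, an adhesion receptor, a window 166 kb from the gene's start was at 72.4%, 9.76% and 50% (29, 41 and 18 calls), while the start was at 3.33%, 1.16% and 3.31%. Atp2b2, a plasma membrane calcium pump, held a window at 95.7%, 33.3% and 61.9% (23, 42 and 21 calls), and its start was at 1.61%, 0.257% and 1.85%. The exceptions were Celf2, whose start was at 97.6%, 100% and 97.8%, and Dnah17, at 54.1%, 27.4% and 37.9%.

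Genes with more than 1 start mostly had another start of low level. For 15 genes a selected window and at least 1 window at another start that did not overlap it were measured, and the deepest of the latter was taken as the other start. It was under 20% in all pools in 12 of the 15 and over 80% in all pools in the other 3. The upper quartiles over all shared windows were 12.9%, 10% and 10.2%, so a low other start is the usual state of a promoter here. Over all 33 windows at other starts of these genes, every one was under 20% in all pools in 10 genes. Further starts of Mier1 and Pdzk1 exceeded that level in a pool, at 17.8%, 7.07% and 22.7% for Mier1 and at 21.95%, 5.43% and 1.89% for Pdzk1. Igf2 was at 55.2%, 8.57% and 47.6% at the selected start and at 1.89%, 1.28% and 0% at a start 5.51 kb away (159, 467 and 90 calls). For Flna the other start, 3.29 kb away, was at 2.16%, 7.32% and 3.45%. Pdpk1, the kinase that activates Akt, was at 89.7%, 47.5% and 69.7% at the selected start and at 0.679%, 0.820% and 1.43% at the other. Mier1, a transcriptional corepressor, was at 55.6%, 5.92% and 31.3% against 3.25%, 1.93% and 3.11%. Shld1, a DNA repair factor of the shieldin complex, was at 39.8%, 10.4% and 30.8% against 1.56%, 0% and 0%. In these 5 genes the deepest other start was under 10% in every pool. Prom1, Klf8 and Pfkfb1 had a highly methylated second start. At Klf8, a zinc finger factor, the selected start was at 95%, 73.1% and 100% and the other at 96.6%, 97.4% and 94.7%. The selected start lay downstream of the other in 7 genes and upstream in 8.

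**Figure D4:**
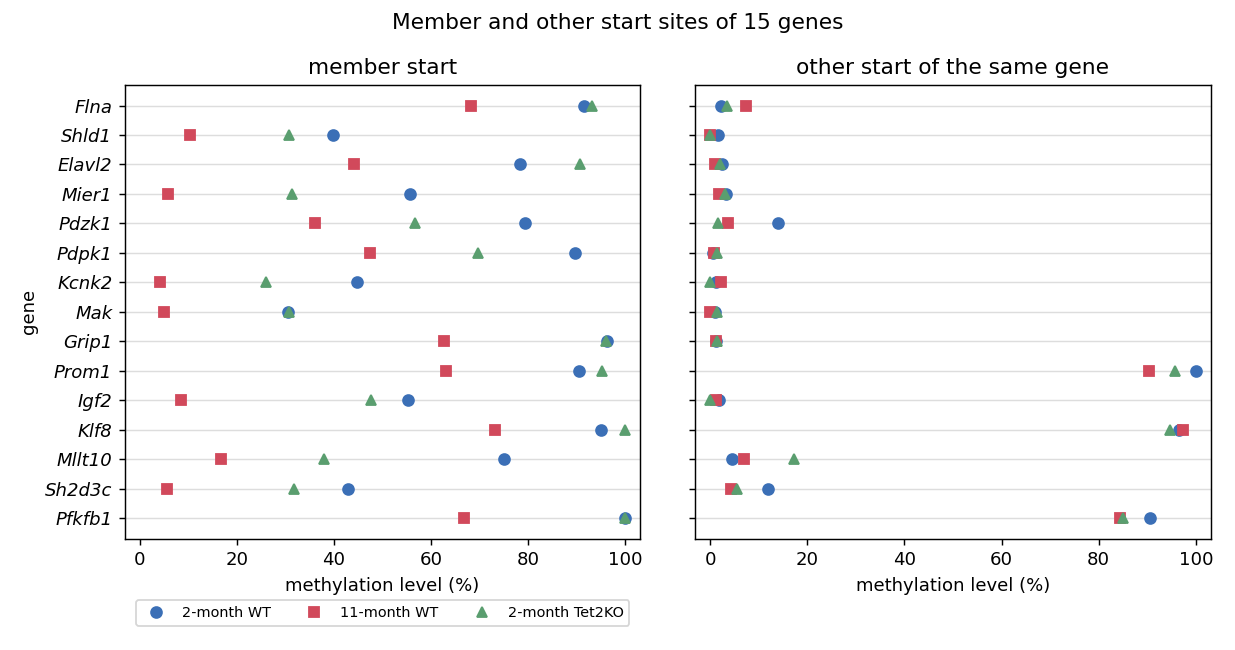
Methylation levels (%) at the selected start (left) and at the deepest other start of the same gene (right) for 15 genes, in 2-month WT (circles), 11-month WT (squares) and 2-month Tet2KO (triangles). In 12 genes that start is under 20% in every pool, and Prom1, Klf8 and Pfkfb1 are over 80% there.

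Neighbouring windows were compared next. The nearest window that did not overlap, with its centre within 10 kb, was found for 72 of the 203. Over these 72 the median difference of the neighbour, 11-month WT minus the mean of the 2-month pools, was -1.19 points, and 15 (20.8%, against 6.07% of all shared windows with a neighbour) were at -10 points or lower. Among the 72 are 4 neighbours that were selected themselves and others counted more than once. Counting each once and leaving out selected windows left 54 windows outside the selection as neighbours of 54 loci. Their median difference was -1.02 points, against 0 for neighbours of all shared windows. Of these 54, 35 were lower at 11 months and 17 higher. Among neighbours of all shared windows 3637 were lower and 3708 higher. The counts were 43 and 31 for windows lowest in Tet2KO, and 47 and 41 for those highest at 11 months. A difference of -10 points or lower was found in 6 (11.1%, against 5.64% for all windows, 10.7% for those lowest in Tet2KO and 5.56% for those highest at 11 months), and of 10 points or higher in 4 (7.41%, against 6.32% for all). The neighbour of Celf3, which encodes a splicing regulator, was one of the 6, at 33.7%, 6.03% and 15.9%, beside 43.5%, 8.08% and 36.8% at Celf3 itself. Most neighbours carried little methylation, at a median of 8.02%, 6.03% and 7.32% in the 3 pools when counted once per selected window.

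A few loci held several overlapping windows, which share most of their calls and count as 1 measurement. Of the 166 loci, 141 held 1 window, 16 held 2, 7 held 3, 1 held 4 and 1 held 5. The locus of 5 was Grip1, and that of 4 was Milr1, an inhibitory receptor of mast cells, at 92.3%, 55.4% and 85.2% in its lowest window. Oaz2, an inhibitor of polyamine synthesis, held 3 windows of the same calls, at 93.9% (49 calls), 38.6% (140 calls) and 80% (15 calls). Prom1, a membrane glycoprotein of stem cells, was at 90.3%, 62.6% and 95.2% from 93, 190 and 63 calls. Over the 9 loci of 3 windows or more, the 11-month level ran from 7.77% at Celf3 to 65.9% at Milr1, and Celf3, Dok7 and Nme6 lay in the lower range.

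Among the 166 loci there were 6 neighbouring pairs within 100 kb of each other, and none had a shared window between its members. In Cdh13, a cadherin gene, windows 3.38 kb apart were at 100%, 18.5% and 95% (15, 27 and 40 calls) and at 90.3%, 65.9% and 87.5% (31, 44 and 16 calls). The first of these had the largest gap of all 203 windows, 76.5 points. Grip1 and the start of its antisense gene Grip1os1 lay 30.8 kb apart, and the latter was at 100%, 41.7% and 100% (29, 36 and 14 calls). Nav2, a neuron navigator gene, and Abcc4, a transporter gene, each held a further pair. The windows highest at 11 months gave 14 such pairs from 284 loci, those lowest in Tet2KO 12 from 233, and all shared windows 19467 from 24830, so the numbers of loci differ and the counts are not compared. Across chromosomes the share of windows that met the rule ran from 0.161% on chromosome 12 to 0.841% on chromosome 10, and 8 lay on the X chromosome.

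In 107 of the 203 windows (the rest, 96, carried a name) no RefSeq protein-coding or lncRNA gene gave a name within 200 bp of the centre. Starts of other gene types were not used for naming. Of these 107, 70 lay inside a gene and 37 outside. Named windows made up 47.3% of the selected and 68.2% of all shared windows. The share was 49.3% for windows highest at 11 months and 47.0% for those lowest in Tet2KO. One of the unnamed, at chr15:84446098-84448097 inside Shisal1, was at 76.9% (26 calls), 10.8% (203 calls) and 100% (11 calls). Another, inside the neuregulin gene Nrg1 at chr8:31917281-31919280, was at 60%, 16.8% and 91.2% from 50, 137 and 34 calls. At both windows Tet2KO was the highest pool and the 11-month pool the lowest.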

How the data were processed

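Low-input bisulfite libraries of MII oocytes were pooled by group before deposit. The submitters' processing notes name Trimmomatic, Bismark (version field 12.5) and mm10 but no roles, and further steps were not given in the sources used here. Labels conflict on the input, with 10 oocytes per sample in the series design and a single oocyte in the extraction protocol. The deposited counts are methylated CpG calls per window, the deposited coverage is all CpG calls, and the deposited fraction is a mean over covered CpG positions, an alternative here. Another column gives covered positions. Listed windows have at least 10 calls and 5 positions. The 2-month WT table breaks off within the X chromosome, and its incomplete line was dropped with the windows beyond it.

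Windows in all 3 tables were joined by position and transcript, without mitochondrial and Y windows. Wilson and Newcombe 95% intervals were computed for levels and differences in Python 3.11.15 (pandas 2.3.3, numpy 2.4.6), after the code was tested on simulated data. No test was run, since each group has 1 pooled value and the rule used all of them. A window took the symbol of a RefSeq protein-coding or lncRNA gene that starts within 200 bp of its centre. Where no strand was given, either end of the gene was used, which is so for 9 of the 63 symbols kept, Insr, Slc43a3, Ssna1, Mfsd3 and Nxph4 among them, and 34 genes with windows at both ends stayed unnamed. Named genes were the 12 windows with the largest smaller gap at 20 calls or more in every pool, the 12 with the most calls in the shallowest pool, members of the 14 lists, the loci with most windows, those nearest the limit and genes with another start; predicted genes, clones and olfactory receptors were left out. Other loci named as examples of a pattern were chosen after their values were seen. The members and lists were chosen with earlier results of these data known. Alternatives were another level, depth minimum, gap, pile-up limit, 1 window per overlapping group, and autosomes only.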

Additional observations from a re-analysis of the deposited data

How the results depend on the processing

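Of 71 recomputed values, 48 stayed close to the reported ones and 23 moved. The deposited mean over CpG positions gave 171 windows by the same rule, of which 107 were shared with the 203. Intervals of both differences, still computed from the share of calls, lay below 0 in 107 of the 171 windows. Of the 171, 47.95% were inside a gene not named for the window. A minimum of 20 calls per pool left 114 windows in 88 loci, and 31.58% of the windows were inside a gene not named for them. At least 50 calls left 34 windows in 23 loci, all 34 with both intervals below 0. Their medians were 56.22% in 2-month WT, 21.54% at 11 months and 48.7% in Tet2KO, with a median Tet2KO minus 2-month WT difference of -2.771 points. Of the 34, 5.882% were inside a gene not named for them. A gap of 15 points gave 368 windows in 287 loci, with a 2-month WT median of 69.88% and a median difference of neighbouring windows of -0.5095 points, against -1.19 over the 72 neighbours reported. A gap of 30 points gave 67 windows in 51 loci, 64 with both intervals below 0, with a Tet2KO median of 82.35% and a neighbour median of 0 points. Keeping 1 window per group of overlapping windows left 105 windows with both intervals below 0. The causes of these shifts were not tested, apart from the smaller number of windows that a stricter limit leaves. No paired analysis was possible because each group has a single pooled value and the tables carry no replicate numbers. Depth limits most of the selected windows, and neither animals nor libraries can be compared.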

Other observations

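The rule could not be applied to 4704 windows that both WT tables list but the Tet2KO table does not. Of these, 294 (6.25%) were at least 20 points lower at 11 months than at 2 months and 447 at least 20 points higher.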
